A study of Mus musculus with 6 samples.

Results

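Interferon-stimulated genes and interferon factors were followed as a set of 41 genes, taken by gene symbol from a table of 52550 genes counted in mouse lung cells. All 41 had a row in the table, and all 41 were among the 18849 genes that passed the filter on low counts. The cells are labelled AT2, the alveolar type II epithelium that secretes surfactant; they came from lungs of C57BL/6 mice and were obtained with dispase and magnetic sorting for CD45-negative, EPCAM-positive cells. Every sample carried creERT2, a tamoxifen-inducible Cre recombinase, at 1 allele of Sftpc, the surfactant protein C gene that drives it in AT2 cells, together with floxed Grp78 (Hspa5, the main chaperone of the endoplasmic reticulum). The 3 control libraries are labelled without tamoxifen and the 3 libraries labelled knockout are labelled with it, so the drug and the loss of Grp78 cannot be told apart. All 6 libraries also carry a label of 10 days after a tamoxifen injection, which conflicts with the control label. Age, sex, pooling and whether the replicates were separate animals are not stated, so the p-values rest on the spread between samples that may be only technical replicates.

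Interferons are secreted proteins that put cells into an antiviral state. Type I interferons bind a receptor made of IFNAR1 and IFNAR2, and interferon gamma binds IFNGR1 and IFNGR2; both act through JAK kinases and STAT proteins. Complexes that hold IRF9 bind the interferon-stimulated response element in the promoters of target genes, whose products degrade viral RNA, block viral entry or trap new particles. AT2 cells are a main target of respiratory viruses in the alveolus, where this program limits infection.

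Libraries held 110770711 to 149520306 counts. Hspa5 itself lay at 925 to 1360 CPM (counts scaled to a common library total, with TMM factors between libraries) in controls and at 3810 to 9260 CPM in those labelled knockout, against what the label says (log2 fold 2.64, edgeR adjusted p = 0.00208). Whole-gene values cannot show floxed exons apart from the others, so every direction here is between libraries as labelled. All 17 markers of AT2 cells were lower, and 13 of 15 fibroblast and smooth muscle markers (7 without control 2 and 8 without library 1 labelled knockout) and 7 of 8 mesothelial markers were higher. The AT2 count was 14 with library-size scaling, and 14 without control 1 or 2 or library 1 or 2 labelled knockout. The mesothelial count was 6 without any 1 library, except without library 3 labelled knockout, where it stayed at 7. Those lists summed to 156000 to 180000, 455 to 857 and 298 to 349 CPM in controls, and to 59200 to 77300, 1440 to 1640 and 511 to 655 CPM in the libraries labelled knockout. Epcam, the epithelial gene used for sorting, was at 185 to 197 CPM in controls and 148 to 161 CPM in the libraries labelled knockout. In bulk samples, more cells of a type and more RNA per cell cannot be told apart. The part of these other cell types in the results below was not tested. Exons of 15 of the 41 genes overlap another annotated gene, on the other strand for 9, and whether counting used strand is not given in the sources used here.

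Antiviral effectors were mostly higher in the libraries labelled knockout, while the receptors, the transcription factors and the RNA sensors went both ways. Of the 41 genes, 20 were called higher and 4 lower (edgeR adjusted p under 0.05 over all genes tested), and 17 were not called. Among all genes tested, 18.0% were called higher and 18.8% lower. The median log2 fold, libraries labelled knockout over controls, was 0.62 for the 41 genes and 0.02 for all genes tested. The 3 libraries labelled knockout lay wholly above the 3 controls for 25 of the 41 genes and wholly below for 5, against 25.0% and 26.6% of all genes tested. Of the called genes, 14 were higher by 2-fold or more and 0 were lower by as much. The lower calls were Irf1, Irf2, Ifnar2 and Ifih1. With library-size scaling 0 members were called lower by edgeR (1 at an unadjusted p under 0.05). DESeq2 with its own scaling and limma-voom with TMM factors called 4 lower each, and neither was run with library-size scaling. With the replicate number as a block 7 members were lower. With both libraries numbered 3 left out, a setting chosen after seeing the data, 22 were higher and 9 lower. The count of 4 became 2 without control 2, 2 without library 1 labelled knockout, 1 without library 2 labelled knockout and 7 without library 3 labelled knockout.

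**Figure D1:**
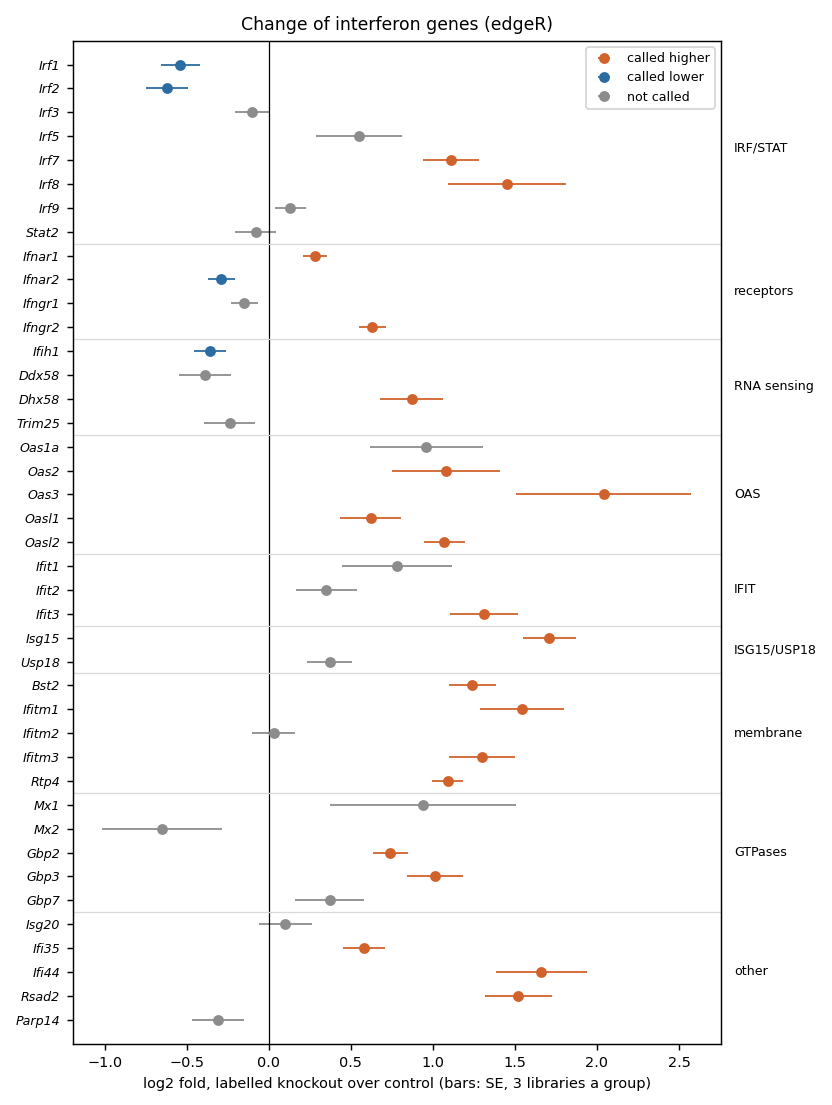
Log2 fold of each of the 41 genes (horizontal axis, libraries labelled knockout over controls, 3 libraries a group) by edgeR with its standard error, grouped by role; orange marks the 20 genes called higher, blue the 4 called lower and grey the 17 not called. The genes called lower are transcription factors, a receptor chain and an RNA sensor, and Oas3 has the highest fold, 2.04.

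Promoter sequences were examined because the effectors share a known response element. RefSeq windows of 300 bases on GRCm38.p6, the mm10 assembly, from 250 bases before to 50 after each annotated start, were matched for 34 of the 41 genes; Dhx58, Oas2, Usp18, Rtp4, Mx1, Mx2 and Parp14 had no entry. The letters searched were the core of the interferon-stimulated response element (ISRE), GAAA, any 2 bases and GAAA on either strand, and the gamma-activated sequence (GAS), TTCNNNGAA, which reads the same on both strands. ISRE letters were present for 16 of 34 members (47.1%), against 3.44% of all 32851 windows and 3.89% of the 13010 tested genes with a window. GAS letters were present for 12 of 34 members (35.3%), against 8.30% of all windows and 8.45% of those genes. The share with ISRE letters was 8 of 17 for members called higher, 2 of 4 for members called lower and 6 of 13 for members not called. A match is a description of letters and not a site shown to be bound.

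The stretches that hold the matches upstream of the start are shown for the 8 called members with the largest log2 folds among those that have any, so that the element can be read beside the gene's change. Each runs 5′ to 3′ on the gene's strand, and capitals mark the ISRE or GAS letters, with 25 bases kept on either side.
Oas3 (chr5:120777700-120777759, minus strand): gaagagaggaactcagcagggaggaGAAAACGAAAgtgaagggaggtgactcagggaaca
Isg15 (chr4:156200850-156200921, minus strand): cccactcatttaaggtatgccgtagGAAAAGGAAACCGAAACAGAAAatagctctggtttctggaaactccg
Rsad2 (chr12:26456538-26456597, minus strand): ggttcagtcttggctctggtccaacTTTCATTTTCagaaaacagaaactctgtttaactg
Irf8 (chr8:120736162-120736238, plus strand): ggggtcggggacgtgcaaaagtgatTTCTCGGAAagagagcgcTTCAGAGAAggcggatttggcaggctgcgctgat
Ifit3 (chr19:34583348-34583441, plus strand): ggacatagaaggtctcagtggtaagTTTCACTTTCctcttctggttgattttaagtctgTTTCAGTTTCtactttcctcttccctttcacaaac
Bst2 (chr8:71537562-71537633, minus strand): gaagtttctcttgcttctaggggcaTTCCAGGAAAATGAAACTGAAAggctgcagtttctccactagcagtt
Gbp3 (chr3:142559974-142560039, plus strand): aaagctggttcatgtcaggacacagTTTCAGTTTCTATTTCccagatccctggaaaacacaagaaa
Gbp2 (chr3:142620579-142620638, plus strand): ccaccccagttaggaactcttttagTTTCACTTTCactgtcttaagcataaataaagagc
The Isg15 stretch holds 3 overlapping ISRE matches that begin at -78, -72 and -66, counted from the start with -1 as the base just before it, and Ifit3 holds 2 separate ones at -156 and -122. In Bst2 a GAS match at -136 runs into overlapping ISRE matches at -130 and -124. Irf8 holds GAS letters alone, at -171 and -153. The windows of Ifi44, Ifitm1, Irf7, Oasl1, Oasl2 and Ifngr2, all called higher, held neither set of letters. Those of Ifitm3 lie after the start, with ISRE letters at 3 and 20.

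**Figure D2:**
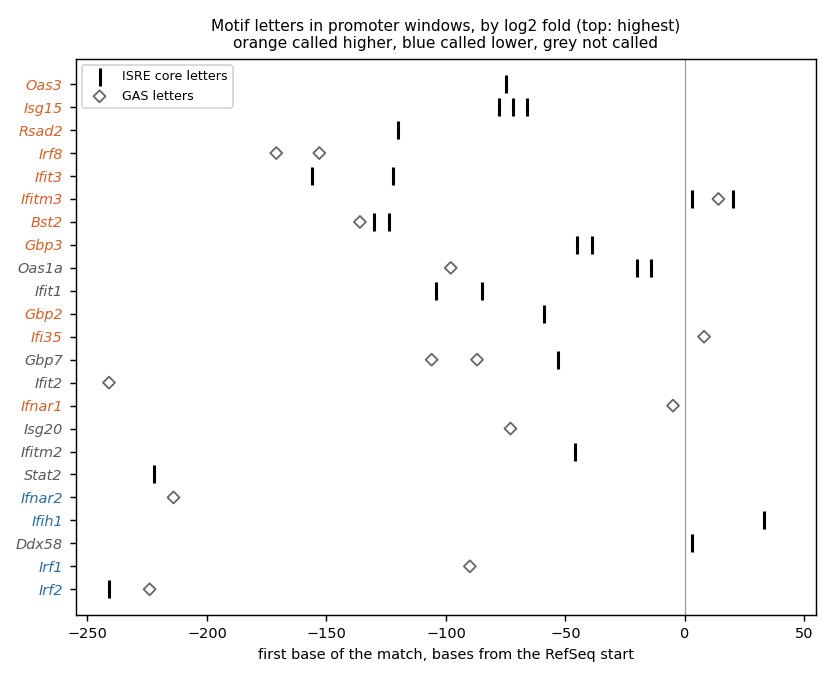
Position of ISRE core letters (bars) and GAS letters (diamonds) in the promoter windows of members with any match, in bases from the RefSeq start, with genes ordered by log2 fold. Matches appear beside genes called higher (orange), called lower (blue) and not called (grey), at 8 of 17, 2 of 4 and 6 of 13 for the ISRE letters.

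Messages of the interferons themselves were at or near 0. Of 13 ligand genes examined (6 of the alpha group, Ifnb1, Ifne, Ifnk, Ifnz, Ifng, Ifnl2 and Ifnl3), 10 had 0 counts in all 6 libraries. At these depths a count of 0 allows up to 3 counts, or 0.0263 CPM in the shallowest case, for counting error only. This limit takes each count as 1 fragment. If mates were counted separately, 2 counts can come from 1 fragment and the limit is higher. Ifng had 2 counts in each library except library 3 labelled knockout, where it had 13. Ifnk had 4 counts in control 2 and Ifnz 10 in library 1 labelled knockout, and both had 0 elsewhere.

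Of the 4 receptor chains, Ifnar1 and Ifngr2 were higher, Ifnar2 was lower and Ifngr1 was not called. Ifnar1, a chain of the type I receptor, was at 37.9, 38.2 and 39.7 CPM in controls 1, 2 and 3 and at 46.9, 48.0 and 45.9 CPM in libraries 1, 2 and 3 labelled knockout. All 3 of the latter lay above the controls (log2 fold 0.28, SE 0.0742, edgeR adjusted p = 0.0224). Its partner Ifnar2 was at 47.3, 44.0 and 42.2 CPM in controls and 37.9, 36.4 and 34.8 CPM in the libraries labelled knockout. It was lower in each (log2 fold -0.29, SE 0.0840, edgeR adjusted p = 0.0302). Both calls ended with any 1 of controls 1 and 2 and libraries 1 and 2 labelled knockout left out (adjusted p up to 0.106 and 0.104), and the fall of Ifnar2 also with library-size scaling (log2 fold -0.03, adjusted p = 0.739) and upper-quartile factors (log2 fold -0.22, adjusted p = 0.0715). Exons of Ifnar2 overlap those of Gm21970 on the same strand.

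Ifngr2, the signalling chain of the interferon gamma receptor, was at 25.6, 25.4 and 27.3 CPM in controls and at 40.8, 38.4 and 42.0 CPM in the libraries labelled knockout. The groups were far apart relative to their spread (log2 fold 0.63, SE 0.0816, edgeR adjusted p = 0.00167), and the call held without any 1 library. Ifngr1, the ligand-binding chain, was not called (log2 fold -0.15, edgeR adjusted p = 0.191); the value was -0.21 without library 3 labelled knockout (adjusted p = 0.0485) and 0.11 with library-size scaling (adjusted p = 0.416). Per kilobase of exon, a scale on which genes can be compared, Ifngr1 was the most abundant chain in both groups, at 18.6 and 16.7 CPM per kilobase, and Ifnar1 the least, at 6.50 and 7.90.

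Ratios of raw counts inside a library do not depend on the scaling between libraries. The Ifnar1 to Ifnar2 ratio was 0.800, 0.868 and 0.940 in controls and 1.24, 1.32 and 1.32 in the libraries labelled knockout. The Ifngr2 to Ifngr1 ratio was 0.476, 0.476 and 0.529 in controls and 0.904, 0.827 and 0.817 in the libraries labelled knockout. In neither pair did the groups overlap. These ratios were chosen after the values were seen and were not tested. Ifnlr1 and Il10rb, the chains of the receptor for interferon lambda, were both lower, with log2 folds of -0.44 and -0.39 (edgeR adjusted p = 0.0254 and 0.00920). Scaled by library size alone these were -0.18 and -0.13 (adjusted p = 0.391 and 0.228). The Ifnlr1 call also ended with upper-quartile factors and without control 2 or 3 or library 1 or 2 labelled knockout (adjusted p up to 0.0936), and that of Il10rb without library 2 labelled knockout (adjusted p = 0.0530).

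**Figure D3:**
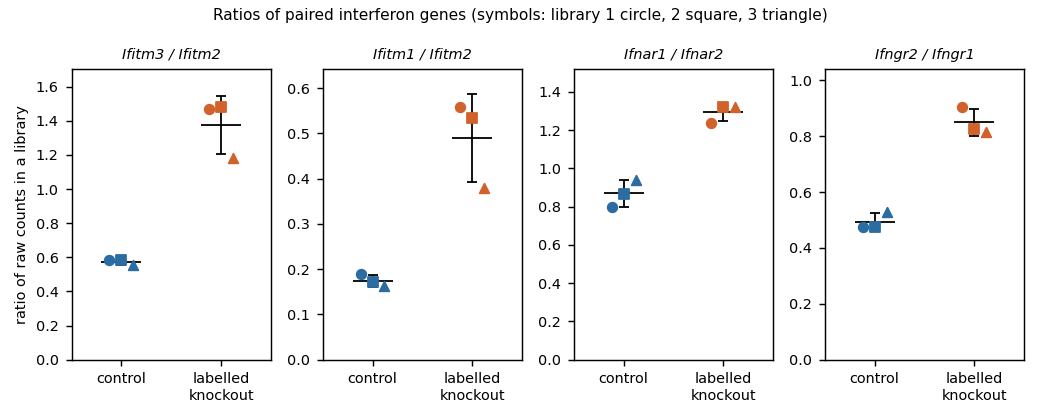
Ratios of raw counts between paired genes in each library (vertical axes, no unit, starting at 0), controls in blue and libraries labelled knockout in orange, with bars for the mean and SD (n = 3). All 4 ratios lie higher in the libraries labelled knockout with no overlap, and library 3 (triangle) has the lowest Ifitm3 to Ifitm2 ratio of that group, 1.18. The pairs were chosen after the values were seen, and the ratios were not tested.

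Among the transcription factors, Irf7 and Irf8 were higher, Irf1 and Irf2 lower, and Irf3, Irf5, Irf9 and Stat2 were not called. Irf7, which amplifies type I interferon production and is itself interferon-induced (chromosome 7, 141262706 to 141266481, minus strand, mm10), was at 4.73, 4.93 and 4.69 CPM in controls and 9.0, 8.78 and 13.2 CPM in the libraries labelled knockout. It rose 2.16-fold with the controls tightly grouped (log2 fold 1.11, SE 0.173, edgeR adjusted p = 0.00329). Its exons overlap those of Phrf1 on the other strand. Irf8, a factor of macrophage and dendritic cell development, was at 1.44, 1.95 and 1.29 CPM in controls and 3.07, 2.91 and 6.82 CPM in the libraries labelled knockout, with library 3 the highest (log2 fold 1.45, SE 0.361, edgeR adjusted p = 0.0182). Without library 3 labelled knockout its log2 fold was 0.93 (adjusted p = 0.0119), and the call ended without control 1 or 3 (adjusted p up to 0.0607).

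Irf1, an activator induced by interferon gamma, was at 43.5, 43.0 and 35.6 CPM in controls and 25.9, 26.8 and 31.5 CPM in the libraries labelled knockout. Control 3 and library 3 labelled knockout lay nearest each other, but the groups did not overlap (log2 fold -0.54, SE 0.118, edgeR adjusted p = 0.0117). The call ended without library 2 labelled knockout (adjusted p = 0.0535) and with library-size scaling (log2 fold -0.27, adjusted p = 0.118). Irf2, which competes with IRF1 for the same element, was at 66.2, 67.4 and 52.0 CPM in controls and 36.6, 39.1 and 45.1 CPM in the libraries labelled knockout (log2 fold -0.62, SE 0.129, edgeR adjusted p = 0.00965). Its call held without any 1 library and ended with library-size scaling (log2 fold -0.35, adjusted p = 0.0660).

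Stat2, a signal transducer of type I interferon, and Irf9, its DNA-binding partner, had small folds. The log2 fold was -0.08 for Stat2 (SE 0.126, edgeR adjusted p = 0.628) and 0.13 for Irf9 (SE 0.0958, adjusted p = 0.309). With library-size scaling Irf9 was called, at 0.39 (edgeR adjusted p = 0.0133). For Irf3, the factor activated by RNA and DNA sensing, the log2 fold was -0.10 (SE 0.105, adjusted p = 0.477), or 0.16 with library-size scaling. For Irf5 it was 0.55 (SE 0.263, adjusted p = 0.139), with 4.15 CPM in library 3 labelled knockout and 1.88 to 2.45 CPM elsewhere. The exons of Irf9 overlap those of Rnf31, and those of Irf3 overlap Bcl2l12 on the other strand.

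RNA sensors and their partners were split. Dhx58, which encodes the regulator LGP2, was at 2.24, 2.40 and 1.91 CPM in controls and 3.41, 3.67 and 4.92 CPM in the libraries labelled knockout. All of the latter were higher (log2 fold 0.87, SE 0.194, edgeR adjusted p = 0.0121). Ifih1, the gene of the double-stranded RNA sensor MDA5, was at 29.0, 29.3 and 30.2 CPM in controls and 21.5, 21.8 and 25.7 CPM in the libraries labelled knockout, a fall (log2 fold -0.36, SE 0.0966, edgeR adjusted p = 0.0234). Its call ended without control 2 or library 1 or 2 labelled knockout (adjusted p up to 0.0975), with library-size scaling (log2 fold -0.10, adjusted p = 0.545) and with upper-quartile factors (adjusted p = 0.0518).

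Ddx58, which encodes the sensor RIG-I, and Trim25, its ubiquitin ligase, had log2 folds of -0.39 and -0.24 and were not called (edgeR adjusted p = 0.0925 and 0.260). Both were higher in library 3 than in libraries 1 and 2 of each group: Trim25 was at 53.2, 58.1 and 72.8 CPM in controls and 46.6, 47.1 and 62.0 CPM in the libraries labelled knockout. With the replicate number as a block both were called lower (adjusted p = 0.00825 and 0.0206). With library-size scaling the log2 fold of Trim25 was 0.01.

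The oligoadenylate synthetase family, enzymes that switch on RNA decay when they meet double-stranded RNA, and its OAS-like relatives included the highest fold of the 41 genes, that of Oas3. All 5 members had positive folds, 4 were called higher, and the groups did not overlap for any of the 5. Oas3 (chromosome 5, 120753098 to 120777661, minus strand, mm10) had 6, 14 and 21 counts in controls and 41, 37 and 99 counts in the libraries labelled knockout, or 0.0526, 0.103 and 0.161 against 0.302, 0.311 and 0.702 CPM. All 3 of the latter were higher (log2 fold 2.04, SE 0.536, edgeR adjusted p = 0.0222), at the lowest level per kilobase of the 41 genes. The Oas3 call ended without control 1 or 2 (adjusted p up to 0.0808), and its log2 fold was 1.52 without library 3 labelled knockout (adjusted p = 0.0488).

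Oasl2 (chromosome 5, 114896936 to 114912234, plus strand) was at 9.55, 9.45 and 7.58 CPM in controls and 17.7, 17.7 and 20.4 CPM in the libraries labelled knockout. It held its call without any 1 library (log2 fold 1.07, SE 0.124, edgeR adjusted p = 0.00116). Oas2 and Oasl1 had log2 folds of 1.08 and 0.62 (edgeR adjusted p = 0.0371 and 0.0336). Oas2 was at 0.298, 0.392 and 0.222 CPM in controls and 0.515, 0.605 and 0.815 CPM in the libraries labelled knockout. Oasl1 was at 2.39, 2.29 and 1.80 CPM in controls and 3.13, 3.03 and 3.81 CPM in the libraries labelled knockout. In neither gene did the groups overlap. Both calls ended without any 1 of the 6 libraries (adjusted p up to 0.0947 and 0.0870) and with the replicate block (adjusted p = 0.0589 and 0.0538). Oas1a was not called (log2 fold 0.96, SE 0.345, edgeR adjusted p = 0.0628), with controls from 1.51 to 4.14 CPM; it has near-identical relatives whose reads the counting could split. DESeq2 and limma-voom called all 5 higher. With edgeR the count of 4 became 2 with the replicate block and 2 without any 1 library, except without control 2, where it was 1.

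Ifit3, a protein that binds foreign RNA together with IFIT1, was at 2.22, 1.98 and 1.55 CPM in controls and 4.41, 4.03 and 5.79 CPM in the libraries labelled knockout. It rose 2.47-fold with no overlap (log2 fold 1.31, SE 0.208, edgeR adjusted p = 0.00359). Its neighbours on chromosome 19, Ifit1 and Ifit2, had log2 folds of 0.78 and 0.35 and were not called (edgeR adjusted p = 0.104 and 0.179), although all 3 libraries labelled knockout lay above the controls. Ifit1 was at 3.74, 4.01 and 1.55 CPM in controls, with control 3 low, and at 4.76, 4.87 and 6.36 CPM in the libraries labelled knockout. DESeq2 called Ifit1 higher (adjusted p = 0.0411).

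Isg15, a ubiquitin-like modifier attached to new proteins (chromosome 4, 156199424 to 156200818, minus strand, mm10), rose 3.27-fold. It was at 2.02, 1.74 and 1.48 CPM in controls and 5.78, 5.88 and 5.44 CPM in the libraries labelled knockout. The 3 libraries labelled knockout were closely grouped, library 3 included (log2 fold 1.71, SE 0.162, edgeR adjusted p = 0.000698). Usp18, the protease that removes ISG15 and blocks signalling at IFNAR2, was at 34.1, 30.5 and 24.2 CPM in controls and 40.3, 34.8 and 39.3 CPM in the libraries labelled knockout. It was not called (log2 fold 0.37, SE 0.135, edgeR adjusted p = 0.0687), and was with the replicate number as a block (adjusted p = 0.0478), by DESeq2 (0.0379), without control 1 (0.0456), with library-size scaling (0.00601) or upper-quartile factors (0.0325), and with the filter of 1 CPM (0.0492). Per kilobase, Usp18 stood above Isg15 in both groups, at 10.6 against 2.31 CPM per kilobase in controls and 13.7 against 7.54 in the libraries labelled knockout.

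Of the membrane proteins that block viral entry or exit, Ifitm1, Ifitm3 and Bst2 rose, and Ifitm2 was not called. Ifitm3, which traps viruses in endosomes (chromosome 7, 141009586 to 141010770, minus strand, mm10), was at 41.7, 40.2 and 32.0 CPM in controls and 109, 105 and 66.0 CPM in the libraries labelled knockout. Its log2 fold was 1.30 (SE 0.201, edgeR adjusted p = 0.00324), with library 3 labelled knockout the lowest of its group. Ifitm1 (chromosome 7, 140967221 to 140969825, plus strand) showed the same order, at 13.4, 11.8 and 9.40 CPM in controls and 41.4, 38.0 and 21.3 CPM in the libraries labelled knockout (log2 fold 1.54, SE 0.256, edgeR adjusted p = 0.00430). Ifitm2, the neighbour of Ifitm1 in the same cluster (140954837 to 140955987, minus strand), was at 71.3, 68.7 and 57.9 CPM in controls and 74.2, 71.1 and 56.1 CPM in the libraries labelled knockout. Its groups overlapped (log2 fold 0.03, SE 0.132, edgeR adjusted p = 0.893). Exons of Ifitm2 overlap those of Gm45717 on the same strand.

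The ratio of Ifitm3 to Ifitm2 counts was 0.585, 0.585 and 0.553 in controls and 1.47, 1.48 and 1.18 in the libraries labelled knockout. The ratio of Ifitm1 to Ifitm2 was 0.189, 0.172 and 0.162 in controls and 0.558, 0.534 and 0.379 in the libraries labelled knockout. Both ratios were higher in every library labelled knockout, whatever the scaling. The Ifitm pairs, like the receptor pairs, were chosen after the values were seen, and the ratios were not tested. Per kilobase, Ifitm2 was the most abundant of the 41 genes in controls (101 CPM per kilobase, with Ifitm3 next at 56.0), and Ifitm3 in the libraries labelled knockout (138, with Ifitm2 next at 102). These are similar sequences, and how the counting shared reads between them is not given in the sources used here.

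Bst2, the tether that holds budding virus at the cell surface (chromosome 8, 71534255 to 71537456, minus strand, mm10), was at 18.3, 19.5 and 15.8 CPM in controls and 48.0, 43.8 and 34.2 CPM in the libraries labelled knockout. Every library labelled knockout was higher, with a fitted change of 2.36-fold (log2 fold 1.24, SE 0.145, edgeR adjusted p = 0.00121). Rtp4, a chaperone of membrane receptors that is also interferon-induced, was at 7.73, 7.40 and 7.06 CPM in controls and 16.5, 15.1 and 15.8 CPM in the libraries labelled knockout. It had the lowest adjusted p of the 41 genes (log2 fold 1.09, SE 0.0934, edgeR adjusted p = 0.000513). Exons of Rtp4 overlap those of Gm45338 on the same strand. The calls of Ifitm1, Ifitm3, Bst2 and Rtp4 held in every alternative run.

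**Figure D4:**
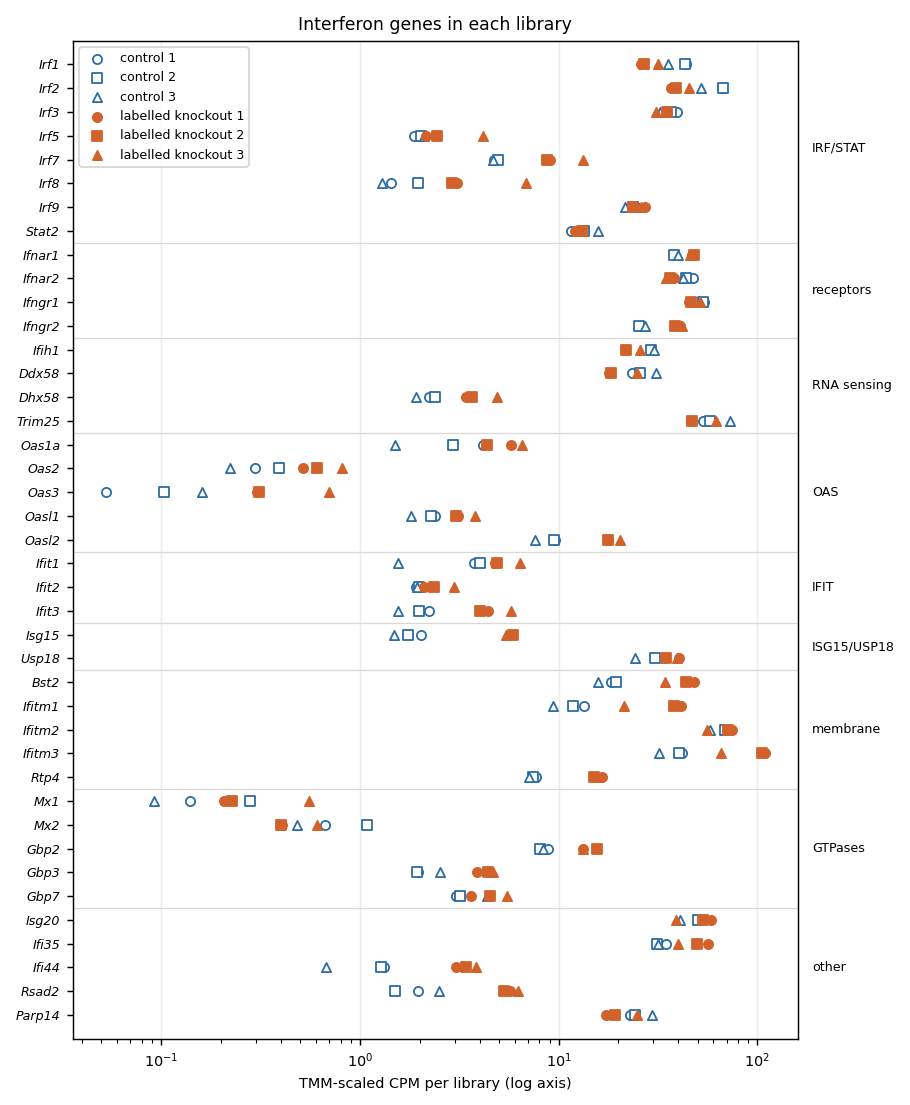
TMM-scaled CPM of each of the 41 genes in each of the 6 libraries (log axis), controls open and blue, libraries labelled knockout filled and orange, with symbols for the library number. The libraries labelled knockout lie wholly above the controls for 25 genes and wholly below for 5, and in library 3 (triangles) Irf8 is high and Ifitm1 low within its group.

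Of the 5 interferon-induced GTPases, Gbp2 and Gbp3 were called higher, and Gbp7, Mx1 and Mx2 were not called. Gbp2, a guanylate-binding protein that attacks pathogen-holding vacuoles, was at 8.81, 8.03 and 8.32 CPM in controls and 13.2, 15.6 and 13.3 CPM in the libraries labelled knockout (log2 fold 0.74, SE 0.107, edgeR adjusted p = 0.00250). Gbp3 was at 1.96, 1.94 and 2.52 CPM in controls and 3.87, 4.39 and 4.68 CPM in the libraries labelled knockout (log2 fold 1.01, SE 0.171, edgeR adjusted p = 0.00449). Both were higher in every library labelled knockout, and both calls held without any 1 library. Gbp7, in the same cluster on chromosome 3, was not called, at a log2 fold of 0.37 (edgeR adjusted p = 0.208). Mx1 and Mx2 belong to the dynamin-like antiviral GTPases. Mx1 carries a deletion in C57BL/6 mice and gives no working protein, and Mx2 is annotated as a polymorphic pseudogene. Both lay under 1.1 CPM in all 6 libraries, with overlapping groups and log2 folds of 0.94 and -0.65 (SE 0.565 and 0.366, edgeR adjusted p = 0.226 and 0.196). Mx1 was highest in library 3 labelled knockout, at 0.553 CPM against 0.0919 to 0.281 CPM elsewhere.

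Of the other effectors, Ifi44, Rsad2 and Ifi35 rose. Ifi44 was at 1.32, 1.28 and 0.674 CPM in controls and 3.06, 3.42 and 3.84 CPM in the libraries labelled knockout (log2 fold 1.66, SE 0.278, edgeR adjusted p = 0.00428). Rsad2, the gene of viperin, an enzyme that makes a chain-terminating nucleotide, was at 1.97, 1.51 and 2.51 CPM in controls and 5.67, 5.34 and 6.23 CPM in the libraries labelled knockout (log2 fold 1.52, SE 0.205, edgeR adjusted p = 0.00197). Both were more than 2-fold higher and held their calls without any 1 library. Ifi35 was at 34.6, 31.3 and 31.5 CPM in controls and 56.2, 49.6 and 40.1 CPM in the libraries labelled knockout (log2 fold 0.58, SE 0.130, edgeR adjusted p = 0.0122); its call ended without control 2 (adjusted p = 0.0612).

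Isg20, an exonuclease, and Parp14, an ADP-ribosyltransferase, were not called (log2 folds 0.10 and -0.31, edgeR adjusted p = 0.671 and 0.158). Isg20 was at 50.1, 50.1 and 41.0 CPM in controls and 58.7, 53.4 and 38.8 CPM in the libraries labelled knockout, so its highest and lowest values both belonged to the latter. Parp14 was called lower with the replicate number as a block (adjusted p = 0.0149).

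Library 3 labelled knockout stood apart from libraries 1 and 2 for part of the set. Its leukocyte markers other than Lyz1 summed to 582 CPM, against 55.8 to 84.9 CPM in the other 5 libraries, and 30 of these 33 markers were at least 2-fold above libraries 1 and 2. Lyz1 was set aside after its level was seen (2710 to 3110 CPM in controls and 1740 to 1950 CPM in the libraries labelled knockout). The number of these markers at 0 was 1 or 2 in the other 5 libraries and 0 in library 3 labelled knockout. Ptprc, which encodes the CD45 used to remove leukocytes, was at 11.0 CPM in library 3 and at 0.963 and 1.29 CPM in libraries 1 and 2 labelled knockout, against 1.05 to 2.07 CPM in controls. Of the 41 genes, 7 were higher in library 3 than the mean of libraries 1 and 2 by 0.5 or more on the log2 scale (Irf5, Irf7, Irf8, Oas2, Oas3, Mx1 and Mx2) and 3 were lower by as much (Ifitm1, Ifitm3 and Isg20).

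Irf8 and Mx1 had differences of 1.19 and 1.35 on that scale, and Ifitm1 of -0.90. Irf4, a lymphocyte factor outside the set, was at 4.05 CPM in library 3 and 0.0351 to 0.397 CPM elsewhere. Endothelial markers summed to 605 CPM there against 953 and 986 CPM in libraries 1 and 2 labelled knockout, and mesothelial markers to 511 against 655 and 653 CPM. Fibroblast and smooth muscle markers summed to 1640 CPM against 1440 and 1540 CPM, and AT2 markers to 77300 CPM against 61200 and 59200 CPM. Hspa5 was at 3810 CPM in library 3 against 9260 and 9180 CPM, so in AT2 markers and Hspa5 library 3 lay nearer the controls than libraries 1 and 2 did. Without library 3 labelled knockout 18 members were called higher, all of them among the 20, and the calls of Oas2 and Oasl1 ended (edgeR adjusted p = 0.0756 and 0.0525). In libraries 1 and 2 labelled knockout the median member was above the mean of controls by 0.53 and 0.49 on the log2 scale, against 0.69 in library 3. The leukocyte sum without Lyz1 was 84.9 and 78.4 CPM in those libraries against 55.8 to 79.5 CPM in controls. Within it, Jchain, a plasma cell gene, and Mrc1, a macrophage gene, are named after their values were seen. Jchain was at 30.1 and 25.8 CPM in libraries 1 and 2 labelled knockout against 1.36 to 7.60 CPM in controls, and Mrc1 at 3.14 and 3.60 CPM against 1.26 to 1.91 CPM. Jchain alone was thus a large part of the sums in libraries 1 and 2, and no sum was taken with Jchain set aside. Not all markers followed Jchain and Mrc1: Ptprc was at 0.963 and 1.29 CPM against 1.05 to 2.07 CPM in controls. Of the 33 markers, 25 and 23 lay below 1 CPM in libraries 1 and 2 labelled knockout, against 20 to 24 in controls. From the leukocyte list with Lyz1, 30 genes were tested, and edgeR called 4 of them higher and 1 lower. Leaving out library 3 of the knockout label kept the higher calls at 4 and brought the lower calls to 3. The part of leukocyte RNA in the values of the 41 genes was not tested.

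**Figure D5:**
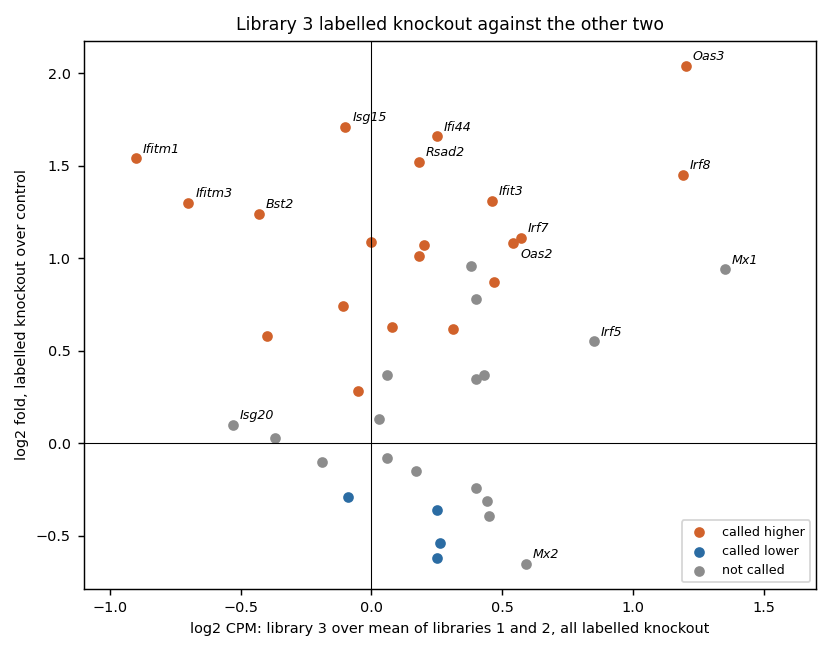
Each of the 41 genes by its log2 difference between library 3 and the mean of libraries 1 and 2 labelled knockout (horizontal) and its log2 fold over controls (vertical), coloured by call. Irf8, Oas3 and Mx1 lie to the right at 1.19 to 1.35, Ifitm1 and Ifitm3 to the left at -0.90 and -0.70, and Isg15 near 0 at -0.10.

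Genes around the set were counted from lists of the same pathway. Of 19 JAK, STAT and feedback genes, 3 were higher (15.8%) and 11 lower (57.9%), with a median log2 fold of -0.33. Tyk2, the kinase of IFNAR1, and the feedback genes Socs1 and Ptpn2 had log2 folds of 0.36, 0.79 and 0.37 (edgeR adjusted p = 0.0223, 0.0300 and 0.0455). The largest falls by adjusted p were Irf2bp2, a partner of IRF2, at -1.08, Pias1, a SUMO ligase, at -0.83, and Cish, a cytokine-induced inhibitor, at -0.82 (edgeR adjusted p = 0.00168, 0.00182 and 0.00356). Scaled by library size alone, the list had 4 higher and 3 lower. With the replicate block it had 5 higher and 11 lower. The higher count was 0 with any 1 of controls 1 and 2 and libraries 1 and 2 labelled knockout left out (3 to 5 at an unadjusted p under 0.05 by edgeR; 4 by DESeq2 and 3 by limma-voom with all libraries), and 1 without control 3. The lower count was 5 without control 2 or library 1 or 2 labelled knockout.

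Of 25 nucleic acid sensing genes, 4 were higher and 3 lower (median log2 fold 0.20), shares of 16% and 12% that were below the 18.0% and 18.8% of all genes tested. With the replicate block 6 were higher and 4 lower. Zbp1, a sensor of Z-form nucleic acid, was at 1.41, 0.976 and 1.18 CPM in controls and 4.54, 4.49 and 4.33 CPM in the libraries labelled knockout (log2 fold 1.91, SE 0.184, edgeR adjusted p = 0.000736). Ifi204, a DNA sensor gene, and Ikbke, a kinase that activates IRF3, rose by log2 folds of 2.07 and 0.93 (edgeR adjusted p = 0.00113 and 0.00162). Tbk1, the related kinase, Rnf135 and Traf6 fell, with log2 folds of -0.41, -0.49 and -0.27 (edgeR adjusted p = 0.00892, 0.0114 and 0.0375). Scaled by library size alone, 10 genes were higher and 0 lower by edgeR (0 at an unadjusted p under 0.05). DESeq2 with its own scaling and limma-voom with TMM factors called 3 lower each, and neither was run with library-size scaling. The Traf6 call also ended without control 1 or 2 or library 1 or 2 labelled knockout, and that of Rnf135 without library 2 labelled knockout.

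Among 61 tested genes of a list of other interferon-induced genes, 20 were higher (32.8%) and 4 lower (6.56%), and the median log2 fold was 0.28. Lgals3bp, a secreted glycoprotein, was at 82.8, 73.5 and 63.8 CPM in controls and 240, 217 and 202 CPM in the libraries labelled knockout (log2 fold 1.58, SE 0.126, edgeR adjusted p = 0.000460). Ifit1bl1, a relative of Ifit1, and Iigp1, an immunity-related GTPase, rose by log2 folds of 2.66 and 1.16 (edgeR adjusted p = 0.00116 and 0.00200). Ifi30, a lysosomal thiol reductase, Helz2 and Samd9l fell, with log2 folds of -0.65, -0.52 and -0.45 (edgeR adjusted p = 0.00396, 0.00656 and 0.0149). Scaled by library size alone, 34 were higher and 1 lower. Without 1 library 8 to 21 were higher, the lowest without control 2. The count was 11 without control 1, 13 without library 1 and 9 without library 2 labelled knockout. The lower count was 2 without control 2 or library 1 or 2 labelled knockout, 9 without library 3 labelled knockout and 8 with the replicate block. The Samd9l call ended without control 2 or library 1 or 2 labelled knockout (adjusted p up to 0.0622).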

How the data were processed

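RNA-seq libraries (NEBNext Ultra kit, paired reads) gave a table of gene-level counts, which the authors deposited as raw counts. The submitters' processing notes name edgeR 3.7 and mm10; the sources used here give no aligner or counting tool. Even counts outnumber what single fragments would give (the ratio of genes with a count of 2 to genes with a count of 1 was 1.63 to 1.76), so mates may have been counted separately. All steps that follow were run on the deposited counts. Genes were kept by filterByExpr, scaled by TMM and tested with edgeR 4.0.16 (quasi-likelihood F test, robust, group only, 3 libraries against 3) in R 4.3.3, with Benjamini-Hochberg adjustment over 18849 genes and a threshold of 0.05. Standard errors were taken from the log2 fold and its F statistic.

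Coordinates and exon lengths are GENCODE M21 (mm10), and promoter windows are RefSeq on GRCm38.p6. The biological coefficient of variation was 22.3%. No replicate pair agreed within counting noise (chi-square per gene 7.98 to 166). For this check counts were halved, as if mates had been counted separately, and genes with few counts were left out. Same-numbered libraries deviated together from their group means (correlations 0.35, 0.20 and 0.329 across genes). They may thus be pairs, although no label states a shared batch or animal. The main fit leaves the numbers out because no label says what they mark, so its p-values ignore any such pairing. With the replicate block 19 members were called higher and 7 lower by edgeR. Values from that fit are given where they change a call. Alternatives were DESeq2 1.42.0, limma-voom (limma 3.58.1), other scalings and filters, the replicate block and each library left out.

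The members and lists were chosen with earlier results of these data known. Every member is accounted for: called members and those with a log2 fold beyond 1 are given in every library, receptors and IRF or STAT genes are named whatever their call, and from each other list the 3 lowest adjusted p in each direction.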

Additional observations from a re-analysis of the deposited data

How the results depend on the processing

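The count of 20 members called higher was 15 to 18 with 1 library left out and 19 to 24 under the other alternatives. The count of 4 called lower was 0 with library-size scaling, 2 with upper-quartile factors, 7 with the replicate block, 9 without both libraries numbered 3 (chosen after seeing the data) and 1 to 7 with 1 library left out. The cause was not tested. Library-size scaling moved the median log2 fold of all genes by 0.26 and turned the sign of Irf3 (0.16), Stat2 (0.17), Ifngr1 (0.11) and Trim25 (0.01), of which none was called with TMM. Leaving out 1 library gave log2 folds of -0.20 to 0.03 for Stat2, -0.06 to 0.14 for Ifitm2 and -0.03 to 0.25 for Isg20, and Stat2 was at 0.02 without both libraries numbered 3. Of the 20 higher calls 14 held without any 1 library, and of the 4 lower calls Irf2 did. With the replicate block as pairing, the calls of Oas2 and Oasl1 ended and those of Ddx58, Trim25, Usp18 and Parp14 were gained; it changed no other call among the 41. Oas3, Oas2, Mx1 and Mx2 lay under 1.1 CPM in all libraries, so counting error adds to their spread.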
